A study of Mus musculus with 3 samples.

Results

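The 7 genes that encode NMDA receptor subunits, Grin1, Grin2a, Grin2b, Grin2c, Grin2d, Grin3a and Grin3b, were followed in ribosome-bound RNA from mouse cerebral cortex. They were chosen by symbol as the whole gene family, and all 7 had a row among the 32531 genes of the count tables. The mice were untreated adults of the C57BL/6J strain and of the line Kcnip2-TRAP NIDA115 (Kcnip2-EGFP/Rpl10a). The sources used here give neither an exact age nor a sex. TRAP lines of this kind carry ribosomal protein L10a fused to EGFP driven by the regulatory DNA of 1 gene, in this line Kcnip2, and an antibody to EGFP pulls down polysomes from the cells that make the fusion protein. There were 3 immunopurified libraries, which form 1 group, and no input or wild-type library was used here, so the values describe the immunoprecipitate alone and no enrichment was computed. Nothing in the labels says that the libraries came from separate mice, so the spread between them may be technical.

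NMDA receptors are glutamate-gated cation channels that admit calcium once depolarization has removed a magnesium block. Each receptor is a tetramer that contains GluN1, encoded by Grin1, which binds the co-agonist glycine or D-serine, together with GluN2 subunits, which bind glutamate, or GluN3 subunits, which bind glycine. GluN2B predominates in the young forebrain and GluN2A is added as the cortex matures. GluN2D is known from interneurons, GluN2C from cerebellar granule cells and astrocytes, GluN3A from the developing brain and some adult interneurons, and GluN3B from motor neurons.

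The libraries held between 11602248 and 14174384 gene counts. Values below are CPM, counts per 1e6 of TMM-scaled library size, as mean ± SD over n = 3 libraries unless stated otherwise, and detection means that no library fell under 1 CPM. Kcnip2 itself, whose regulatory sequences drive the tag, was at 189.5, 155.4 and 148.4 CPM in replicates 1, 2 and 3. The native gene of the tagged protein, Rpl10a, from which reads of the tag cannot be told apart, was at 82.8, 59.4 and 73.8 CPM. All 10 pan-neuronal markers were detected, led by Snap25 at 33510 CPM. Of the other cell types, the summed level was 2578 to 4134 CPM for 10 astrocyte, 555.6 to 736.7 CPM for 8 oligodendrocyte, 74.5 to 107.0 CPM for 6 oligodendrocyte precursor, 42.2 to 65.3 CPM for 8 microglial and 17.1 to 27.8 CPM for 7 endothelial and mural markers.

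The family shares a conserved membrane segment, M3, that lines the channel. Its coding sequence is shown for 1 gene of each subunit class, to show how alike these 3 genes are at a conserved point. With 1 gene of each class, it does not show how alike genes within a class are. Nor does it settle whether a sequenced fragment can be assigned to 1 member. The stretches are 60 bases long, read 5′ to 3′ on the coding strand from GENCODE M21 transcripts (GRCm38), and capitals mark the 31 bases that are the same in these 3 genes.
Grin1: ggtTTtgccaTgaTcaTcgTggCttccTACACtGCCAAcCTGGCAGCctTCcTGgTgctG
Grin2c: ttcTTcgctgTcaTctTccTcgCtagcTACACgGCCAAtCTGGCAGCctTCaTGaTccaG
Grin3b: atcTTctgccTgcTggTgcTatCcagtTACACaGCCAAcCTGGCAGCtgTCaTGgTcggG

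Each stretch lies within 1 coding exon, at chr2:25297190-25297249 for Grin1 and chr11:115253740-115253799 for Grin2c, both on the minus strand, and at chr10:79974612-79974671 on the plus strand for Grin3b. Of the 60 bases, 42 were identical between Grin1 and Grin2c, 39 between Grin2c and Grin3b and 35 between Grin1 and Grin3b. Over whole annotated transcripts, the longest exact run shared by any pair of the 7 genes was 34 bases, between Grin2b and Grin2c. The runs shared by Grin2c and Grin2d and by Grin2a and Grin2d were 32 and 28 bases long, and Grin1 shared at most 23 bases with another member. The sources used here do not give the read length, so the share of reads short enough to fall within such runs is unknown.

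Of the 7 genes, 6 were detected, against 37.3% of all genes in the tables. Grin1, the obligatory subunit (chromosome 2, 25291181 to 25319187, minus strand, GRCm38), had the most counts, at 219.8, 301.1 and 290.8 CPM in replicates 1, 2 and 3. Replicate 1 lay below the other libraries, and without it the mean was 296.0 ± 7.28 CPM (n = 2) in place of 270.6 ± 44.3. This level exceeded that of 96.5% of the 18703 genes with a read. The antisense RNA gene Grin1os covers 13.5% of the Grin1 exon sequence, and its row held 0 counts in all 3 libraries. Whether strand was used in counting is not given, so reads from that shared part cannot be assigned.

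Grin2b (chromosome 6, 135713233 to 136173511, minus strand) had the most counts of the Grin2 genes, at 163.5, 173.2 and 159.8 CPM. It was also the steadiest member, with a coefficient of variation of 4.18% over the 3 libraries, where counting error alone would give 2.15%. Grin2a (chromosome 16, 9567898 to 9995560, minus strand), which encodes the subunit typical of mature synapses, was at 31.6, 36.3 and 44.0 CPM. Grin2a was highest in replicate 3 and lowest in replicate 1, and its coefficient of variation was 16.8%.

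Grin2d (chromosome 7, 45831883 to 45878378, minus strand) was at 18.0, 13.7 and 10.3 CPM, from 211, 186 and 145 counts. Its highest library, replicate 1, was 1.75-fold above its lowest, replicate 3, the widest range of the 6 detected members, with a coefficient of variation of 27.6% against 7.46% from counting alone. As a sum, the 8 markers of GABAergic neurons had the same extremes, at 2938, 2627 and 2590 CPM, with no marker at 0. Of the 8, 7 were highest in replicate 1, against 36.5% of all genes tested. The low was less uniform: Gad2, Dlx6 and Lhx6 were lowest in replicate 2 and the other markers in replicate 3. Of 8 somatostatin and parvalbumin interneuron markers, 5 of the 7 tested were highest in replicate 1, but the list was not uniform: the calcium-binding protein gene Pvalb was at 195.1, 116.8 and 99.97 CPM and the peptide gene Sst at 429.5, 550.4 and 895.9 CPM. Sst was the only gene of the marker lists that passed the test of variation between libraries given below (edgeR adjusted p = 0.0193). Glutamatergic markers had the opposite extremes, as Grin2a did: 5 of 7 tested were highest in replicate 3, against 31.0% of all genes tested, and the sum over 8 was 7057, 8629 and 9578 CPM, led by the kinase gene Camk2a at 6526 ± 945.8 CPM. These extremes were not particular to glutamatergic markers. Of the 10 pan-neuronal markers, 7 were highest in replicate 3, with sums of 40470, 43400 and 46880 CPM. The part of cell composition in the Grin2d and Grin2a values was not tested, and fewer cells of a type and less RNA per cell cannot be told apart in such samples.

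Grin2c (chromosome 11, 115249169 to 115267243, minus strand) was barely above the detection level, at 2.22, 1.77 and 2.41 CPM. These values rest on 26, 24 and 34 counts, and their exact Poisson 95% intervals, which cover counting error only, ran from 1.45 to 3.25, 1.13 to 2.63 and 1.67 to 3.37 CPM and overlapped. The coefficient of variation of 15.4% was no larger than the 19.0% that counting alone gives at this depth. The 10 astrocyte markers were all detected, with sums of 2578, 4134 and 3480 CPM led by the glutamate transporter gene Slc1a2 at 1332 ± 295.4 CPM. Replicate 2, lowest in Grin2c by values whose intervals overlapped, thus had the highest sum. Of the 10 markers, 7 were highest in replicate 2, 2 in replicate 1 and 1 in replicate 3. The part of astrocytes in the Grin2c values was not tested. Of 5 cerebellar granule cell markers 3 were detected, with sums of 122.8, 133.2 and 159.8 CPM, led by Etv1, which cortical layer 5 neurons also express, at 103.1 ± 16.8 CPM. Neurod1, at 27.1, 22.0 and 31.8 CPM, and Zic1, at 7.42, 10.6 and 6.81 CPM, were detected too. Gabra6, which defines granule cells, was at 0 in all 3 libraries, and Cbln3 was at 0.512, 0 and 0.0709 CPM.

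Grin3a (chromosome 4, 49661611 to 49845744, minus strand), which encodes the glycine-binding GluN3A, was at 45.1, 56.1 and 55.4 CPM, lowest in replicate 1. The values of replicates 2 and 3 were nearly the same, and the coefficient of variation was 11.8%. Ppp3r2, a gene that lies inside the Grin3a locus, shares no exon sequence with it and had 0, 4 and 0 counts. Grin3b (chromosome 10, 79970715 to 79977190, plus strand) was at 0 counts in each library, and the limit that this sets is 0.256, 0.221 and 0.213 CPM in replicates 1, 2 and 3. The gene Tmem259 on the opposite strand, at 17.0 ± 1.60 CPM, covers 32.1% of the Grin3b exon sequence, and reads from that part could have been set aside as ambiguous. The other 67.9%, or 2237 bases, is free of it. With Grin3b set at 3 counts in each library over these 2237 bases, Grin3a was at least 32.1-fold higher per kilobase of union exon.

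**Figure D1:**
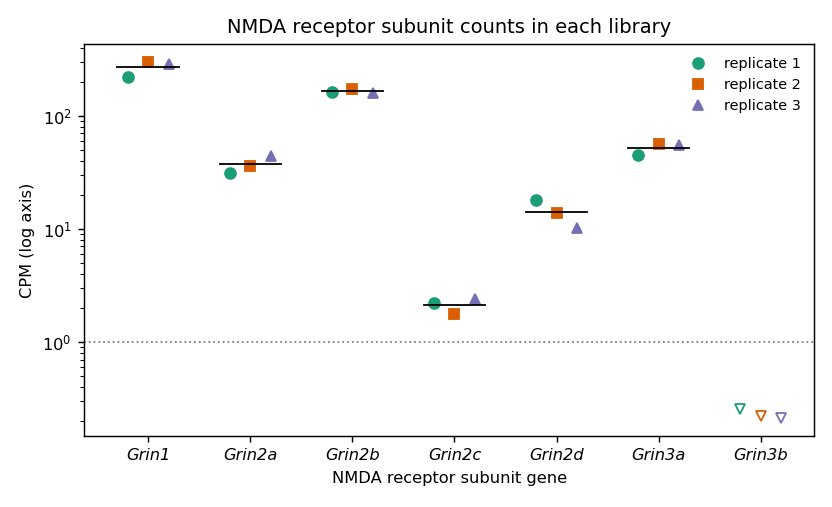
Levels of the 7 subunit genes in CPM on a log axis, with 1 point per library, a black line at the mean, and a dotted line at the detection level of 1 CPM. Open triangles for Grin3b mark the limit that a count of 0 allows, 0.213 to 0.256 CPM; Grin1 is highest at 219.8 to 301.1 CPM and Grin2c the lowest detected at 1.77 to 2.41 CPM.

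Counts follow transcript length as well as abundance, and these genes differ greatly in length. The longest coding transcript was 24060 bases for Grin2b, of which 81.5% is untranslated, and 14634 bases for Grin2a, against 4276 for Grin1, 4895 for Grin2c, 5431 for Grin2d, 7491 for Grin3a and 3283 for Grin3b. The union of all annotated exons of Grin1, at 9700 bases, is much longer than its longest coding transcript, and 5332 of these bases lie only in exons of transcripts not annotated as protein-coding. Levels were therefore set per kilobase of union exon length, of the longest coding transcript and of coding sequence. The annotation release used for counting is not given, so which divisor is closest to the counted sequence is unknown.

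Per kilobase of union exon, Grin1 was at 27.9 ± 4.56 CPM per kb, Grin2b at 6.66 ± 0.279, Grin3a at 4.25 ± 0.50, Grin2d at 2.10 ± 0.581, Grin2a at 2.08 ± 0.351 and Grin2c at 0.423 ± 0.0653. Grin1 was 4.15-fold above Grin2b, by a log2 difference of 2.05 ± 0.24, and Grin2b was 1.57-fold above Grin3a, by 0.65 ± 0.17, each in 3 of 3 libraries and without overlap. Grin3a exceeded Grin2d in 3 of 3 libraries, but the log2 difference ranged from 0.44 in replicate 1 to 1.55 in replicate 3. Grin2d and Grin2a could not be ordered: Grin2d was higher by 0.62 in replicate 1 and lower in replicate 3, at -0.67 on the log2 scale, with a mean of -0.01 ± 0.64. Grin2a stood 4.91-fold above Grin2c.

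The place of Grin1 at the top and of Grin2c at the bottom of the detected genes held under each divisor, and the order between them did not. Per kilobase of the longest transcript, Grin3a and Grin2b could not be ordered (6.97 ± 0.819 and 6.88 ± 0.288 CPM per kb, Grin3a higher in 2 of 3 libraries). Per kilobase of coding sequence, Grin2a at 8.50 ± 1.43 stood above Grin2d at 3.53 ± 0.975 in all 3 libraries. Grin3a was above Grin2a in every library under all of these measures, by 1.04 ± 0.15 on the log2 scale per kilobase of union exon, 1.46 ± 0.15 per kilobase of the longest transcript and 0.86 ± 0.15 per kilobase of coding sequence. An exact two-sided sign-flip permutation test of 3 within-library ratios gave p = 0.25 for each ratio with 1 sign in all 3 libraries, which is the smallest p it can give, so these orders are descriptions.

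**Figure D2:**
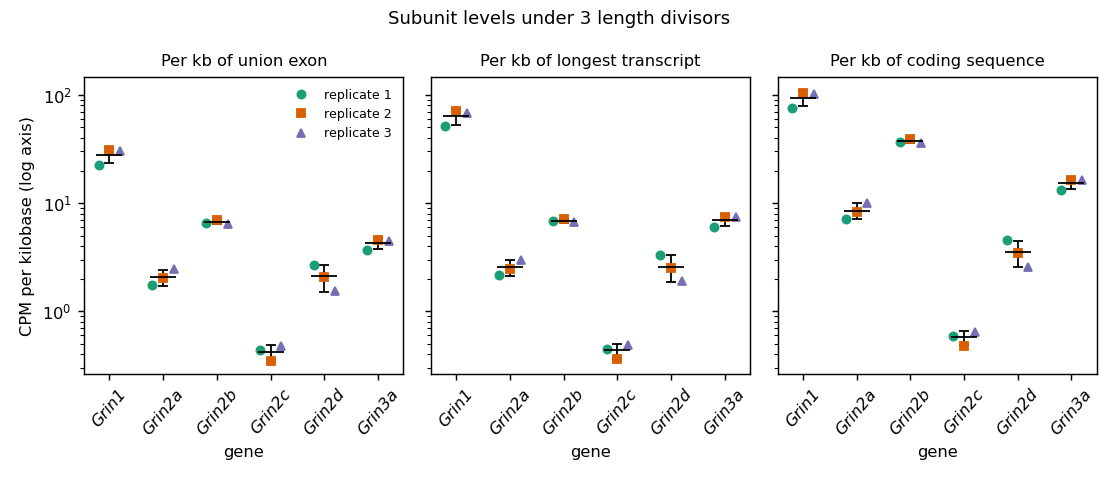
CPM per kilobase (log axis) of the 6 detected subunit genes under 3 length divisors, with 1 coloured point per library and the mean ± SD in black. Grin1 is highest in each panel, at 27.9, 63.3 and 94.1 CPM per kb, while Grin2a and Grin2d share a level in the first and second panels and separate in the third.

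Within the Grin2 genes, Grin2b made up most of the signal. Grin2b exceeded Grin2a by a log2 ratio of 1.90, 1.78 and 1.39 per kilobase of union exon in replicates 1, 2 and 3, a mean of 1.69 ± 0.27 or 3.23-fold. Of the summed Grin2 level, Grin2a supplied 18.5% ± 3.65, Grin2d 18.6% ± 4.72 and Grin2c 3.77% ± 0.656 per kilobase of union exon. The share of Grin2d was 23.5%, 18.1% and 14.2% in replicates 1, 2 and 3, while that of Grin2a was 15.3%, 17.8% and 22.5%, so both varied across libraries around a steadier Grin2b share of 57.3% to 61.1%. Per kilobase of coding sequence the Grin2d share was only 7.09% ± 2.01.

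**Figure D3:**
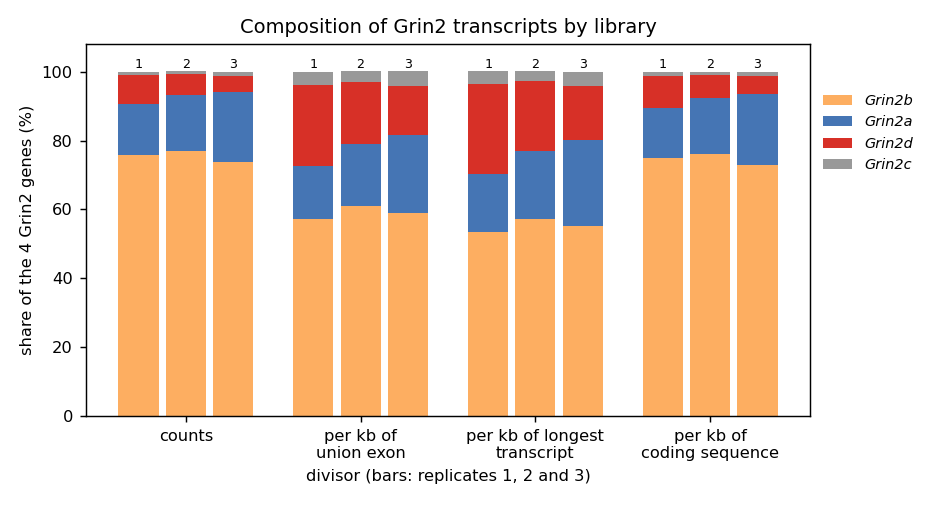
Share of each Grin2 gene in the sum of the 4, in percent, for replicates 1, 2 and 3 (bars, left to right in each set) by counts and per kilobase under 3 divisors. Grin2b is the largest part of every bar, and the Grin2d part is largest in replicate 1 in each set.

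Grin1 was set beside the sum of the Grin2 genes because each GluN2-containing receptor also needs GluN1. Per kilobase of union exon, Grin1 exceeded that sum by log2 ratios of 0.98, 1.44 and 1.46, a mean of 1.29 ± 0.27 or 2.45-fold, with replicate 1 lowest. The excess was 5.04-fold per kilobase of the longest transcript, 1.87-fold per kilobase of coding sequence and 1.22-fold by counts, so its size depended on the divisor. Per kilobase its sign held in all 3 libraries. By counts the log2 ratio was 0.42 and 0.43 in replicates 2 and 3 but only 0.03 in replicate 1, close to equality. The ratio of Grin1 to Grin3a was the most even between libraries of the ratios computed, at log2 2.71 ± 0.07. Among all NMDA receptor genes per kilobase of union exon, Grin1 supplied 64.0% ± 3.53, Grin2b 15.5% ± 1.71 and Grin3a 9.79% ± 0.124.

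The 7 NMDA receptor genes together held 16.2% ± 0.688 of the summed level of 18 ionotropic glutamate receptor genes per kilobase of union exon. The 4 AMPA receptor genes, which carry most fast excitatory transmission, held 73.2% ± 0.992 and the 7 kainate and delta receptor genes 10.5% ± 0.791. The NMDA share was 15.6%, 16.9% and 16.2% in replicates 1, 2 and 3, and the AMPA share was larger in each library. By counts the median NMDA receptor gene was at 37.3 CPM, against 20.1 CPM for all 12509 genes tested below, 401 CPM for AMPA and 15.4 CPM for kainate and delta receptor genes.

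Variation between libraries was tested for all genes past a count filter with edgeR's quasi-likelihood fit, which asks whether a gene spreads more than genes of its level. Of 12509 genes, 12 passed (0.0959%), and 723 had an unadjusted p under 0.05 (5.78%). None of the 6 members tested passed by edgeR, 0 of 6 had an unadjusted p under 0.05, and 0 of 6 were dispersion outliers in DESeq2; Grin3b, at 0, could not be tested. Grin1 had the highest ratio to the trend, F = 3.27 (edgeR adjusted p = 0.875), followed by Grin2d with F = 1.70 (edgeR adjusted p = 0.979) and Grin2a with F = 1.31 (edgeR adjusted p = 0.997). Grin2b and Grin2c lay well under the trend, at F = 0.181 and 0.163. The wider range of Grin2d did not pass this test, which does not show either that the members were equal between libraries.

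**Figure D4:**
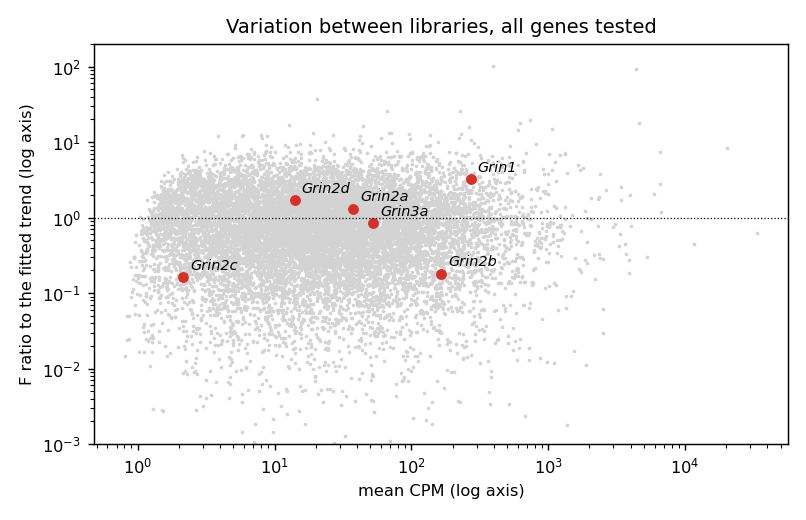
Ratio of each gene's variation between libraries to the fitted trend (F, log axis) against its mean CPM (log axis) for the 12509 genes tested, with the 6 tested subunit genes in red and a dotted line at 1; genes with F under 0.001 are outside the frame. Grin1, Grin2d and Grin2a lie above the line, at 3.27, 1.70 and 1.31, within the cloud of other genes.

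Replicate 1 was the lowest library for 3 of the 6 detected members, Grin1, Grin2a and Grin3a, and for 36.4% of all genes tested, so with 6 genes this count does not set the family apart. On the log2 scale, the deviation of replicate 1 from the gene's own mean was -0.29 for Grin1, -0.23 for Grin2a, -0.20 for Grin3a and -0.02 for Grin2b, while Grin2c was at 0.06 and Grin2d at 0.40. In the same library the median deviation was -0.35 for astrocyte, -0.32 for microglial, -0.46 for endothelial and mural, -0.29 for oligodendrocyte precursor and -0.20 for glutamatergic markers. It was -0.12 for pan-neuronal and -0.04 for oligodendrocyte markers, and 0.16 for GABAergic and 0.11 for somatostatin and parvalbumin interneuron markers. The median over all genes tested was 0.00 in each library. The part of these marker differences in the subunit values was not tested.

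**Figure D5:**
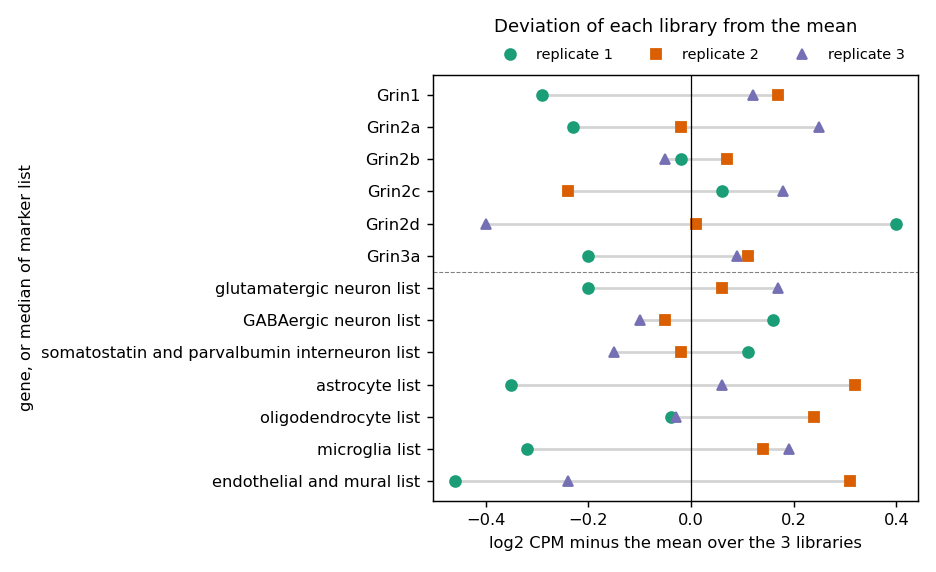
Deviation of each library from the gene's mean log2 CPM for the 6 detected subunit genes (above the dashed line), and the median deviation of the marker lists (below it), with 1 symbol per library. Replicate 1 is at 0.40 for Grin2d and 0.16 for the GABAergic list, and at -0.29 for Grin1 and -0.20 for the glutamatergic list.

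For each detected subunit, the genes nearest in log2 CPM over the 3 libraries were found by Euclidean distance among the 12509 genes tested. Grin1 was nearest to Pde4b, a cAMP phosphodiesterase gene, at 229.7, 289.8 and 292.9 CPM (distance 0.084), and to Rnf150 (0.100). Grin2b was nearest to Ap2m1, a subunit of the clathrin adaptor complex, at 166.3, 172.2 and 164.1 CPM (0.046), and to Dip2c (0.048). Grin2a was nearest to Fam214a (0.085) and Zfp9 (0.099), Grin2c to Ccdc80 (0.069) and Lrrc51 (0.122), Grin2d to Ppp4r1 (0.092) and Fign (0.107), and Grin3a to the vesicle SNARE gene Vamp4 (0.044) and to Slx4 (0.053). With only 3 libraries such nearness is common: between 136 genes for Grin2c and 650 for Grin3a lay within a distance of 0.5.

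Among genes that work with NMDA receptors, 58 were listed in 5 groups, AMPA, kainate and delta receptors included. Of these, 53 were detected, against 37.3% of all genes in the tables. None of the 53 tested passed edgeR's test of variation, against 0.0959% of all genes tested, and 0 were DESeq2 dispersion outliers. An unadjusted edgeR p under 0.05 was found for 4, Gria2, Psat1 and Ppp3ca among them, against 5.78% of all genes tested. The direction of the listed genes between libraries was therefore not called, and values are given for the extremes of each group.

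All 20 scaffold and trafficking genes were detected, with a median of 173 CPM. Dlg2, which encodes the PSD-93 scaffold that binds GluN2 tails, was the highest at 1170 ± 67.4 CPM, and Actn2, an actin-binding protein that contacts GluN1, the lowest at 3.85 ± 1.06. All 15 kinase, phosphatase and downstream signalling genes were detected too, with a median of 178 CPM. Camk2a, the kinase that docks on GluN2B, led them, and Src, a tyrosine kinase that raises receptor activity, was the lowest at 16.9 ± 1.47 CPM.

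The genes of co-agonist supply, which make, move or break down glycine and serine, were lower and less complete than the other groups. Of 12, 7 were detected, against 37.3% of all genes in the tables, and the median was 5.26 CPM. Psat1, an enzyme of serine synthesis, was the highest at 145.0, 207.5 and 163.1 CPM. The glycine transporter gene Slc6a5 and the amino acid transporter gene Slc38a5 had 0 counts in all 3 libraries. Of the other receptor genes, Gria3 led the AMPA group at 876.1 ± 102.4 CPM and Gria4 was its lowest at 198 ± 4.57. Grik3 led the kainate and delta group at 81.3 ± 8.26 CPM and Grik4 was its lowest at 5.12 ± 1.27. Per kilobase of union exon, Gria4, the lowest AMPA receptor gene, was at 32.2, 31.2 and 30.8 CPM per kb in replicates 1, 2 and 3, against 22.7, 31.0 and 30.0 for Grin1. By this measure Gria4 was higher in each library, by little in replicates 2 and 3. By counts the order was reversed in each library, with Gria4 at 203.3, 196.8 and 194.5 CPM and Grin1 at 219.8, 301.1 and 290.8. The order of these genes therefore depended on the length correction. Grik3, the highest kainate and delta receptor gene, was at 9.06 ± 0.920 CPM per kb, below Grin1 in all 3 libraries.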

How the data were processed

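The deposited tables hold raw counts of reads per gene symbol for 3 immunopurified libraries, made by the authors with STAR 2.0.0e and HTSeq on mm10, per the submitters' processing notes. The counting mode and strand setting are not given in the sources, nor is the release of the annotation. Reads in genes were 61.9% to 70.7% of those tallied; the counter's special rows, and a row named unknown with 0 counts, were left out. Library pairs differed by more than sampling noise (chi-square divided by degrees of freedom, 12.3 to 28.5) and none was merged.

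CPM used TMM scaling (edgeR 4.0.16, R 4.3.3), and log2 CPM a prior count of 2. Depth limits a count of 0 to 0.213 to 0.256 CPM (3 counts), for counting error only. Exon lengths were taken from GENCODE M21 (GRCm38, which is mm10); 23155 rows matched on the symbol and 790 on an older one. Variation between libraries was tested with an intercept-only quasi-likelihood fit (glmQLFit, robust) on genes past filterByExpr (minimum count 10), as the ratio of quasi-dispersion to trend, with Benjamini-Hochberg adjustment at 0.05. DESeq2 1.42.0 was an alternative. Ratios within libraries were tested with an exact two-sided sign-flip test. Shared runs and the M3 stretch were found by exact matching in GENCODE transcripts (Biopython 1.88).

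The subunit genes and gene lists were chosen with earlier results of these data known. The text names the 7 subunits, the 2 genes nearest each, Kcnip2, Rpl10a, the highest and lowest gene of each pathway list with any that passed, the highest gene of most marker lists, and markers at 0. Pvalb, Sst, Cbln3, Neurod1, Zic1, Gad2, Dlx6, Lhx6, the genes of overlapping loci and those named for an unadjusted p under 0.05 were chosen after their values were seen. Some genes and sequences are not reported here.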

Additional observations from a re-analysis of the deposited data

How the results depend on the processing

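Depth limits Grin2c, with 24 to 34 counts a library, and Grin3b, with 0. For the 7 subunit genes, Grin3b at 0 included, all 35 mean levels under DESeq2 size factors, plain library totals or without 1 replicate stayed within 1 SD of the reported value. Leaving out 1 of 3 libraries cannot move a mean by 1 SD, and Grin3b could not move from 0. For those levels the outcome was therefore fixed in advance and shows nothing about robustness. No subunit gene passed the test of variation under any of the 7 alternatives run, although Grin1 had an unadjusted p under 0.05 in edgeR's fit with no count filter (0.0409) and without replicate 3 (0.0382), with adjusted p of 0.814 and 0.835 (0.814 to 0.993 over the 6 edgeR alternatives). The 12 genes that varied became 66 with no count filter, 5 without robust moderation and 28 as DESeq2 dispersion outliers, and 4 to 10 when 1 replicate was left out, lowest without replicate 2; the cause was not tested. Other length divisors moved the ratios by construction. Grin2b over Grin2a (log2 1.69 per kilobase of union exon) was 1.44 with the longest transcript, 2.14 with coding length and 2.16 with no length correction, and 1.59 to 1.84 with 1 replicate left out. Grin1 over summed Grin2 (log2 1.29) was 2.33 with the longest transcript, 0.90 with coding length and 0.29 with no length correction, and 1.21 to 1.45 with 1 replicate left out. The NMDA share (16.2%) was 19.6% with the longest transcript and 20.5% with no length correction, and 15.9% to 16.6% with 1 replicate left out. Grin2d over Grin2a (log2 -0.01) turned to 0.32 without replicate 3 and was -0.32 without replicate 1. No paired analysis was possible because the libraries form 1 group.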
